A study of Mus musculus with 1 sample.

Results

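The genes described here are 34 genes of glycolysis, lactate and pyruvate handling, taken by symbol from the 27998 genes of the deposited gene list of a mouse testis single-cell RNA sequencing library. They cover the enzymes from hexokinase to pyruvate kinase, the isozymes that switch the phosphofructokinase step on or off, lactate dehydrogenase, the plasma membrane carriers for glucose and lactate, the mitochondrial pyruvate carrier, the pyruvate dehydrogenase complex with its kinases, and the entry enzyme of the pentose phosphate pathway. All 34 were found, each on 1 row of the list, and all had at least 1 UMI (unique molecular identifier, a tag that marks 1 captured transcript). Of these, 28 had at least 50 UMIs in the cells kept, which was the minimum for counting a difference. The 6 below it were Pfkp, Pgk1, Eno2, Pfkfb2, Pfkfb3 and Pfkfb4.

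The library was made from Zscan2+/+ (wild-type) C57BL/6 mice at postnatal day 8, the control of a study of spermatogonial stem cell regulators. Testis cells carrying the surface protein THY1, which undifferentiated spermatogonia display, were isolated on magnetic beads, and a few unselected testis cells were added back, so the proportions of cell types follow from the mixture. Equal numbers of cells from 3 mice were pooled into this 1 library, so the mice cannot be told apart, there are no replicates and no test was made. Every interval below is an exact 95% interval for counting error alone, and the knockout library was not analysed here.

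Glycolysis converts glucose to pyruvate in the cytosol, and lactate dehydrogenase interconverts pyruvate and lactate. In the seminiferous epithelium, Sertoli cells are known for taking up glucose and exporting lactate, which germ cells can import and oxidise. Most steps are served by paralogous genes that differ between tissues, and pyruvate dehydrogenase kinases restrain the entry of pyruvate into the mitochondrial citric acid cycle.

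Of 970 barcodes, 919 were kept. They fell into 113 cells resembling spermatogonial stem cells (SSC-like), 75 progenitor-like and 135 differentiating-like germ cells, 255 Sertoli-like, 186 stromal-like and 94 peritubular myoid-like cells, with 35 macrophage-like and 26 T cell-like cells that are not described. None of the 34 genes was used to form or name these clusters. The germ cell classes, here and below in the order SSC-like, progenitor-like, differentiating-like, had median depths of 22353, 19446 and 10878 UMIs per cell, against 8343, 8370.5 and 7446 in Sertoli-like, stromal-like and myoid-like cells. Levels are therefore given as UMIs per 1000000 UMIs of a class (CPM). Each UMI marks the 3′ end of a transcript, so levels were not divided by gene length, and paralogs are compared by their share of the UMIs of a family, between classes.

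Markers of other classes were also counted in each class. The 7 Sertoli markers, such as Amh and Sox9, summed to 7956 CPM in Sertoli-like cells and to 80.3 CPM in germ cells, 1.01% of that level. In stromal-like cells they reached 5.05% of it. The 6 germ cell markers, Dazl and Ddx4 among them, reached 2.45% of their germ cell level in Sertoli-like, 2.30% in stromal-like and 1.60% in myoid-like cells. The 7 stromal markers reached 16.9% of their stromal-like level in myoid-like cells, the highest such share among these lists, and the 6 myoid markers 2.57% of theirs in stromal-like cells. The part of such RNA in the low levels given below was not tested.

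Together the 34 genes held 0.541% of the UMIs of Sertoli-like cells (interval 0.531 to 0.550%), the largest share of the 6 classes. The share was 0.414, 0.423 and 0.329% in the germ cell classes, and 0.351% in stromal-like and 0.289% in myoid-like cells. The interval of SSC-like cells, 0.406 to 0.422%, overlapped that of progenitor-like cells, 0.412 to 0.434%. The sum hides opposite patterns of single genes, which the heat map of levels by class shows.

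**Figure D1:**
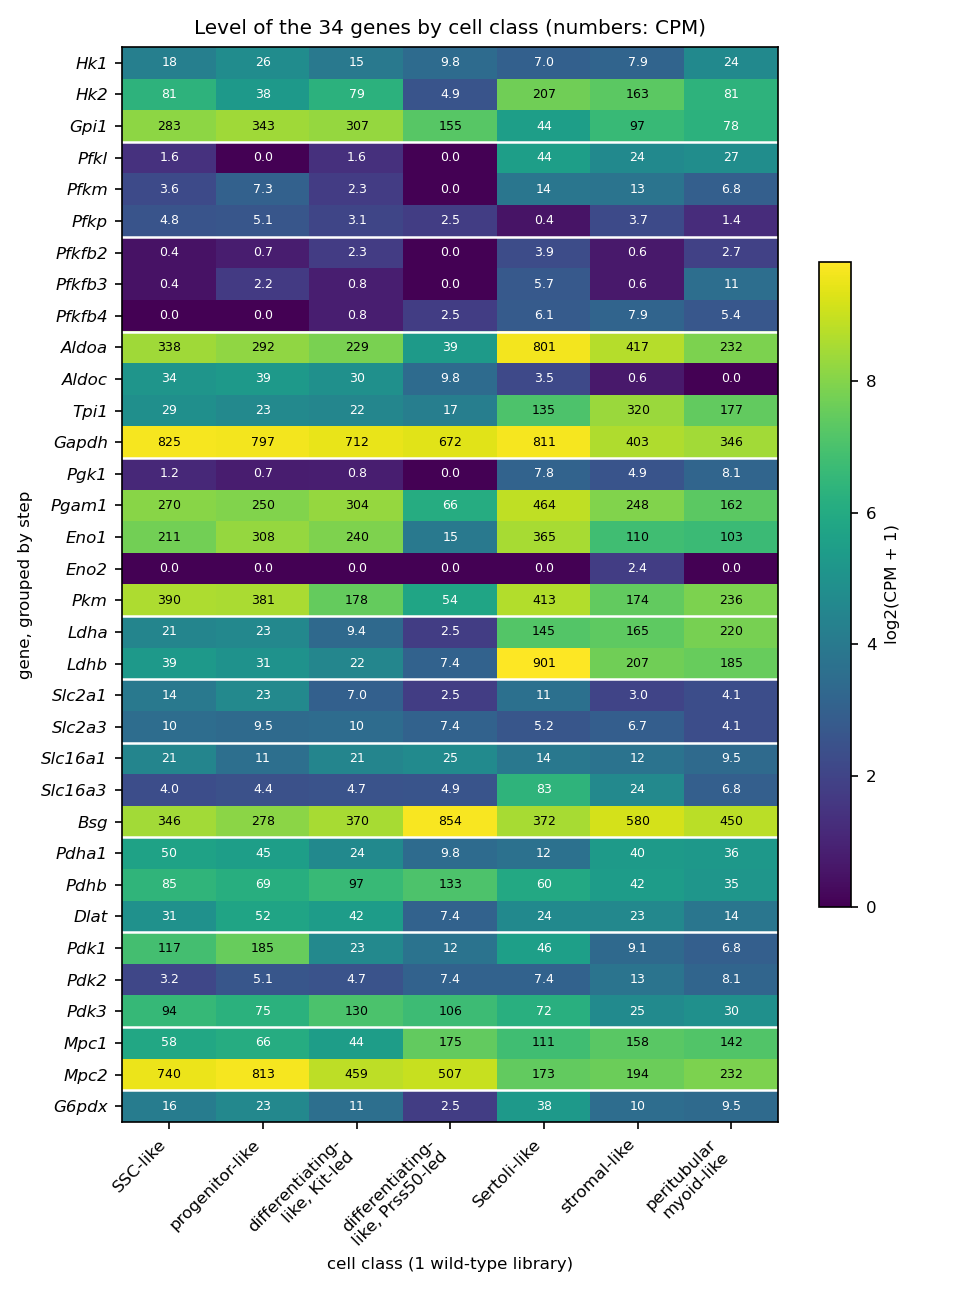
Level of each of the 34 genes (rows, ordered by step) in 7 groups of cells (columns) of the single wild-type library. Colour is log2(CPM + 1) and the printed number is the CPM; differentiating-like cells are shown as their 2 clusters. Ldhb reached 901 CPM in Sertoli-like cells and at most 38.6 CPM in germ cell groups, whereas Mpc2 was at 459 CPM or more in every germ cell group and at most 232 CPM in somatic classes.

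Compared with all 323 germ cells summed, 9 of the 28 genes over the minimum were at least 2-fold higher in Sertoli-like cells, where 24.5% of all genes tested were, and 6 were at least 2-fold higher in germ cells, against 24.8% of all genes. The 9 were Hk2, Pfkl, Pfkm, Aldoa, Tpi1, Ldha, Ldhb, Slc16a3 and G6pdx, and the 6 were Hk1, Gpi1, Aldoc, Pdk1, Pdha1 and Mpc2. The germ cell sum is weighted by UMIs, and SSC-like and progenitor-like cells gave 3855135 of its 5542874 UMIs. Pdk1, unlike the other genes of the 6, was lower in differentiating-like than in Sertoli-like cells. The median log2 ratio of germ over Sertoli-like cells was −0.22 over the 28 genes and 0.05 over all genes tested. Against stromal-like and myoid-like cells summed, 9 genes were at least 2-fold higher in germ cells (34.2% of all genes) and 9 lower (21.2%). Here the median of all genes was itself at 0.40, and after centring on it 6 genes were higher in germ cells and 9 lower. Sertoli-like cells exceeded stromal-like and myoid-like cells at least 2-fold in 12 genes (25.0% of all genes) and fell below them in 3 (13.2%), or in 8 and 4 genes after centring on the median of 0.37. Gapdh, Pgam1, Pkm and Aldoa, at between 2.1-fold and 2.23-fold over stromal-like and myoid-like cells, were the members of the 12 that centring took below 2-fold. The shares of all genes given here are before centring, so the centred counts cannot be read against them.

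The glucose transporters were scarce at this depth. Slc2a1, which encodes GLUT1, was measured at 14.5, 23.4 and 5.93 CPM in the germ cell classes, and at 11.3, 3.05 and 4.05 CPM in Sertoli-like, stromal-like and myoid-like cells. Germ cells exceeded stromal-like and myoid-like cells 4.19-fold, from 78 and 8 UMIs, and the difference from Sertoli-like cells was within counting error (log2 ratio 0.31, interval −0.34 to 1.01). Slc2a3, encoding GLUT3, lay between 4.05 and 10.5 CPM in the 6 classes.

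Hexokinase commits glucose to the cell by phosphorylating it. Hk2 held most hexokinase UMIs in each of the 6 classes. It was measured at 80.8, 38.0 and 61.0 CPM in the germ cell classes, and at 207, 163 and 81.0 CPM in Sertoli-like, stromal-like and myoid-like cells. Hk2 was thus 3.22-fold higher in Sertoli-like than in germ cells. Hk1 ran the other way between these classes, at 18.8 CPM in germ cells and 6.97 CPM in Sertoli-like cells. As a share of hexokinase UMIs, Hk1 made up 3.26% in Sertoli-like (interval 1.87 to 5.24%) and 4.64% in stromal-like cells (2.49 to 7.81%), but 23.1% in myoid-like (14.3 to 34%), 18.3% in SSC-like (13.7 to 23.7%) and 40.9% in progenitor-like cells (30.5 to 51.9%). In differentiating-like cells the Hk1 share was 18.3% (11.9 to 26.1%). The higher share in progenitor-like cells came with a 2.13-fold lower level of Hk2 there than in SSC-like cells. Hk1 was at 26.3 CPM in progenitor-like and 18.1 CPM in SSC-like cells, with overlapping intervals. Hk2 was the only gene of the set at least 2-fold higher in SSC-like cells (6.89% of all genes). That difference stayed past 2-fold in 10 of 15 alternative settings.

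Gpi1, which isomerises glucose 6-phosphate, was a germ cell gene by level. It stood at 283, 343 and 270 CPM in the germ cell classes and at 44.4, 96.9 and 78.3 CPM in Sertoli-like, stromal-like and myoid-like cells, 6.61-fold higher in germ than in Sertoli-like cells. G6pdx, encoding the dehydrogenase that diverts the same substrate into the pentose phosphate pathway, was highest in Sertoli-like cells, at 38.3 CPM against 15.7 CPM in germ cells and 10.1 CPM in stromal-like and myoid-like cells. Gpi1 has 1 near-identical 3′ end annotated elsewhere. This means that another gene's transcript matches at least 100 of the last 300 bases of Gpi1 at 95% identity or more.

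Phosphofructokinase transcripts were few, and the paralogs were distributed unequally. Pfkl, the liver-type gene, had 101 UMIs in Sertoli-like cells (44.0 CPM), 40 in stromal-like (24.4 CPM) and 20 in myoid-like cells (27.0 CPM), but 6 in all germ cells (1.08 CPM), 40.6-fold below Sertoli-like cells. This log2 ratio, −5.34, was −2.78 with a mitochondrial limit of 5%, which left 67 germ and 54 Sertoli-like cells. In the 3 Sertoli-like clusters Pfkl was at 29.8, 79.2 and 30.1 CPM (intervals 20.6 to 41.6, 59.1 to 104 and 16.9 to 49.7). Its excess over stromal-like and myoid-like cells thus lay mainly in the second cluster. Pfkm, the muscle-type gene, was 3.40-fold lower in germ than in Sertoli-like cells, at 3.97 and 13.5 CPM. Of the 52 phosphofructokinase UMIs in germ cells, 24 were from the platelet-type gene Pfkp, a share of 46.2% (interval 32.2 to 60.5%), whereas Pfkp gave 1 of 133 such UMIs in Sertoli-like cells. Pfkp had 35 UMIs in all and was below the minimum for counting. The 3 genes Pfkfb2, Pfkfb3 and Pfkfb4, whose bifunctional enzymes make and remove the allosteric activator of phosphofructokinase, had 18, 35 and 39 UMIs in the kept cells. Germ cells held 12 UMIs of the 3 genes and Sertoli-like cells 36. Pfkm and Pfkfb2 are each overlapped by another annotated gene on the same strand.

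Aldolase was served mainly by Aldoa in all classes. Its level was 338, 292 and 183 CPM in the germ cell classes, and 801, 417 and 232 CPM in Sertoli-like, stromal-like and myoid-like cells. In the 3 Sertoli-like clusters Aldoa was at 952, 714 and 568 CPM, with separate intervals. Aldoc, best known as the brain aldolase, was seen mainly in germ cells, with 33.8, 38.7 and 24.9 CPM in the 3 germ cell classes, 8 UMIs in Sertoli-like cells (3.48 CPM), 1 in stromal-like cells and none in myoid-like cells. It made up 10.4% of aldolase UMIs in germ cells (interval 8.96 to 11.9%) and 0.433% in Sertoli-like cells (0.187 to 0.852%). The log2 ratio of germ over Sertoli-like cells was 3.21 (interval 2.20 to 4.45). For the 0 UMIs in myoid-like cells the interval reached up to 4.98 CPM. Aldoa has 2 near-identical 3′ ends annotated elsewhere.

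Tpi1 and Gapdh, which act in sequence, differed in their distribution. Tpi1, encoding triosephosphate isomerase, was measured at 29.0, 23.4 and 20.7 CPM in the 3 germ cell classes and at 135, 320 and 177 CPM in Sertoli-like, stromal-like and myoid-like cells. The stromal-like and myoid-like sum was 11.0-fold above germ cells. Gapdh was at 825, 797 and 702 CPM in germ cells, 811 CPM in Sertoli-like cells, and 403 and 346 CPM in stromal-like and myoid-like cells, and its log2 ratio of germ over Sertoli-like cells was −0.05 (interval −0.13 to 0.03). Gapdh has 130 annotated near-identical 3′ ends elsewhere in the genome and Tpi1 has 2, so the assignment of their reads is uncertain. Pgk1, the next enzyme of the pathway, had 45 UMIs in all barcodes.

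Pgam1, Eno1 and Pkm encode phosphoglycerate mutase, enolase and pyruvate kinase. Pgam1 and Eno1 were highest in Sertoli-like cells, and all 3 genes were also abundant in undifferentiated germ cells. Pgam1 was at 270, 250 and 247 CPM in the germ cell classes, and at 464, 248 and 162 CPM in Sertoli-like, stromal-like and myoid-like cells. Eno1 was at 211, 308 and 186 CPM in germ cells and at 365, 110 and 103 CPM in the somatic classes. Pkm was at 390, 381 and 148 CPM in germ cells and at 413, 174 and 236 CPM in the somatic classes. Its interval in Sertoli-like cells, 387 to 440 CPM, overlapped those of SSC-like (366 to 415) and progenitor-like cells (349 to 416). For all 3 genes the ratio of germ to Sertoli-like cells stayed within 2-fold. Eno2, the neuronal enolase, had 4 UMIs, all in stromal-like cells. Eno1 has 5 near-identical 3′ ends annotated elsewhere and Pkm has 2, and another annotated gene overlaps Pkm on the same strand.

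Both lactate dehydrogenase genes were higher in the somatic classes than in germ cells. Ldhb, encoding the heart-type H subunit of lactate dehydrogenase, was at 901 CPM in Sertoli-like cells (2069 UMIs), at 207 and 185 CPM in stromal-like and myoid-like cells, and at 38.6, 30.7 and 18.4 CPM in the germ cell classes. Sertoli-like cells exceeded germ cells 29.6-fold (log2 ratio of germ over Sertoli-like cells −4.89, and −6.17 with the 5% mitochondrial limit), and the level was alike in the 3 Sertoli-like clusters, at 884, 904 and 937 CPM. Ldha, encoding the muscle-type M subunit, was at 145, 165 and 220 CPM in Sertoli-like, stromal-like and myoid-like cells and at 21.3, 22.6 and 7.70 CPM in the germ cell classes. Germ cells were thus 8.26-fold below Sertoli-like and 10.4-fold below stromal-like and myoid-like cells, log2 ratios of −3.05 and −3.38 that became −2.37 and −2.79 with 20 principal components.

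The balance of the subunit genes also differed between somatic classes. Ldha made up 13.8% of lactate dehydrogenase UMIs in Sertoli-like cells (interval 12.5 to 15.3%), 44.4% in stromal-like (40.4 to 48.4%) and 54.3% in myoid-like cells (48.5 to 60.1%). In germ cells the share was 36.5% (30.7 to 42.6%), from 266 UMIs in all. Ldha has 6 near-identical 3′ ends annotated elsewhere and Ldhb has 1.

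Monocarboxylate transporters carry lactate across the plasma membrane, MCT1 (Slc16a1) with a high and MCT4 (Slc16a3) with a lower affinity, and both need the glycoprotein basigin (Bsg) to reach it. Slc16a3 was at 83.2 CPM in Sertoli-like cells, 23.8 in stromal-like and 6.75 in myoid-like cells, and at 4.02, 4.38 and 4.74 CPM in the germ cell classes. Slc16a1 ranged from 9.45 CPM in myoid-like to 21.9 CPM in differentiating-like cells. Slc16a3 therefore made up 85.3% of the UMIs of the pair in Sertoli-like cells (interval 79.9 to 89.6%) and 18.6% in germ cells (12.3 to 26.4%). The share of Slc16a3 was 66.1% in stromal-like (52.6 to 77.9%) and 41.7% in myoid-like cells (15.2 to 72.3%). Within the Sertoli-like clusters Slc16a3 was at 103, 59.4 and 70.3 CPM and Slc16a1 at 6.13, 19.8 and 26.1 CPM. Bsg was abundant in every class, between 278 CPM in progenitor-like and 580 CPM in stromal-like cells, and its log2 ratio of germ over Sertoli-like cells was 0.00 (interval −0.11 to 0.12).

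**Figure D2:**
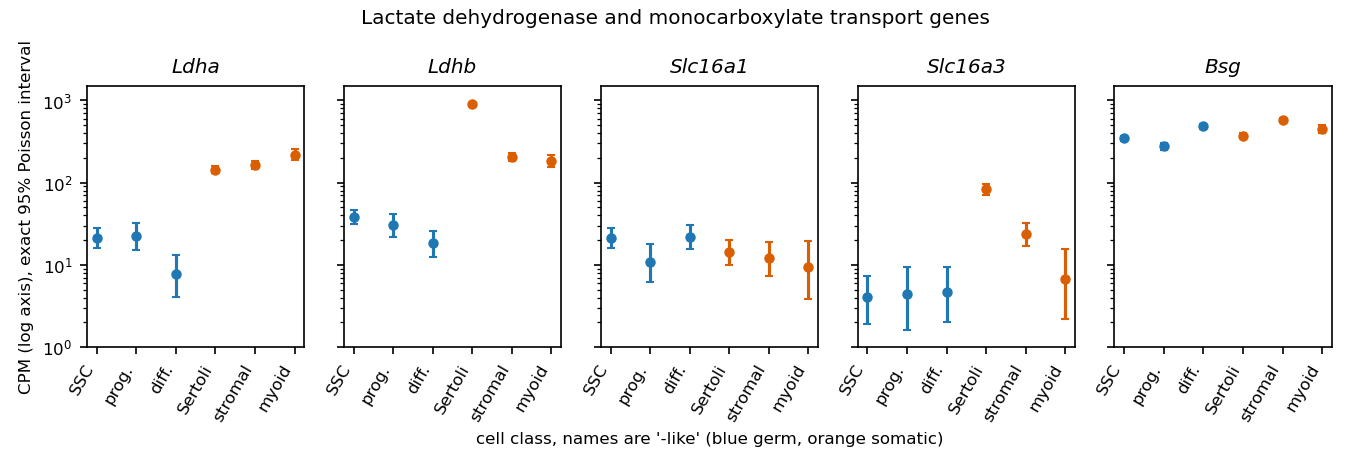
Level in CPM (log axis, exact 95% Poisson intervals for counting error) of the lactate dehydrogenase genes Ldha and Ldhb, the monocarboxylate transporter genes Slc16a1 and Slc16a3 and their partner Bsg in 6 classes of 1 library, germ cells in blue and somatic cells in orange. Ldhb and Slc16a3 peaked in Sertoli-like cells at 901 and 83.2 CPM, Ldha peaked in myoid-like cells at 220 CPM, Slc16a1 ranged from 9.45 to 21.9 CPM and Bsg from 278 to 580 CPM.

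The promoters of these paralog pairs are shown because the members of each pair differed in distribution. Windows run from 250 bases before to 50 bases after a RefSeq transcript start in the assembly GRCm38.p6, written along the transcribed strand. Capitals mark each ACGTG on either strand, so that CACGT is its reverse complement. ACGTG is a form of the core of the hypoxia response element, and the E box CACGTG holds ACGTG on both strands. The other form of the core, GCGTG, was not searched. It occurs unmarked in windows printed here, those of Ldha and Ldhb included. The windows lie at chr7:46845554-46845853 on the plus strand for Ldha, chr6:142507908-142508207 on the minus strand for Ldhb, chr11:120948817-120949116 on the plus strand for Slc16a3 and chr3:104638414-104638713 on the plus strand for Slc16a1.
Ldha: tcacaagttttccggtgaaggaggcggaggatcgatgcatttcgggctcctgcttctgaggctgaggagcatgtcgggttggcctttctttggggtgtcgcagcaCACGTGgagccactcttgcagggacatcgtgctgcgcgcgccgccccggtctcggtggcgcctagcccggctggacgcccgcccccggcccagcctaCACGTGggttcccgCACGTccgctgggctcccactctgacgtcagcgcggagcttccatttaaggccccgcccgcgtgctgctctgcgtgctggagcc
Ldhb: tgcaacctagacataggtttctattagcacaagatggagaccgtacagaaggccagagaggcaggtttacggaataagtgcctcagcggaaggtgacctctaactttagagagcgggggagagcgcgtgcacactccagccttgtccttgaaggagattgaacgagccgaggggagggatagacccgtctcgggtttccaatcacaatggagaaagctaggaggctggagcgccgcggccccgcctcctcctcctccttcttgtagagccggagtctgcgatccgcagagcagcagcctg
Slc16a3: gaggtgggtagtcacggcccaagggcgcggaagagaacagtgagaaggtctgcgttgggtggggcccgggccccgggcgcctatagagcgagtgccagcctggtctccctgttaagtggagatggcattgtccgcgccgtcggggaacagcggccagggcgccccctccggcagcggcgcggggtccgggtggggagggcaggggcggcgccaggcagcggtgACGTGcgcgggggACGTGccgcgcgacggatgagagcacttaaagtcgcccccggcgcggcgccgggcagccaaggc
Slc16a1: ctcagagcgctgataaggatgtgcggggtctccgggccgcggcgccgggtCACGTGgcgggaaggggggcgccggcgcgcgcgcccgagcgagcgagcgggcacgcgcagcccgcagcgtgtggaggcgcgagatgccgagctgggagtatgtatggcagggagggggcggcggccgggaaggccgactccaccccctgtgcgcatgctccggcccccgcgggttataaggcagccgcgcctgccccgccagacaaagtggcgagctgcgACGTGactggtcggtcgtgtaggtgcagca

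The Ldha window shown, the upstream one of 2, held 5 matches of ACGTG, 4 of them within 2 E boxes, at 34 to 145 bases before the start, while the window of Ldhb, the gene with the higher level in Sertoli-like cells, held none. The other Ldha window, at chr7:46846832-46847131, held none either. The Slc16a3 window held 2 matches and the Slc16a1 window 3, 2 of them within 1 E box. Windows were given for 32 of the 34 genes, Slc2a3 and Bsg being the others, and 19 of the 32 (59.4%) held ACGTG in at least 1 window, against 21.8% of all 27025 genes with a window. Members had more windows per gene, and by window the motif was in 23 of 49 (46.9%) against 19.6% of all. CACGTG was in 6 of the 49 windows (12.2%) against 7.15% of all. Member windows were also richer in G and C, with a median of 62.0% against 52.7% for all windows, and a match is a description of the sequence, not of binding.

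Pyruvate enters mitochondria through the carrier formed by MPC1 and MPC2. Mpc2 was among the most abundant genes of the set in germ cells, at 740, 813 and 470 CPM in the germ cell classes, against 173, 194 and 232 CPM in Sertoli-like, stromal-like and myoid-like cells. Mpc1 showed the opposite order by class, at 58.3, 65.7 and 75.2 CPM in germ cells and 111, 158 and 142 CPM in the somatic classes. The differentiating-like level combined 43.7 CPM in its Kit-led and 175 CPM in its Prss50-led cluster, both described below. The order therefore did not hold for the Prss50-led cluster. Mpc2 was 3.91-fold higher in germ than in Sertoli-like cells, and Mpc1 was 2.35-fold lower in germ cells than in stromal-like and myoid-like cells. Mpc1 has 2 near-identical 3′ ends annotated elsewhere.

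Inside mitochondria the pyruvate dehydrogenase complex oxidises pyruvate. Pdha1, the X-linked gene of its E1 alpha subunit, was at 49.9, 44.6 and 20.7 CPM in the 3 germ cell classes, 11.8 CPM in Sertoli-like cells and 39.6 and 36.5 CPM in stromal-like and myoid-like cells. Germ cells exceeded Sertoli-like cells 3.37-fold. Pdhb, for the E1 beta subunit, ranged from 35.1 CPM in myoid-like to 105 CPM in differentiating-like cells. Dlat, for the E2 subunit, ranged from 13.5 CPM in myoid-like to 51.9 CPM in progenitor-like cells.

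The kinases that inactivate this complex separated the classes further. Pdk1 was at 117, 185 and 20.7 CPM in the germ cell classes, and at 45.7, 9.14 and 6.75 CPM in Sertoli-like, stromal-like and myoid-like cells, 12.5-fold higher in germ than in stromal-like and myoid-like cells. The log2 ratio of that difference, 3.64, was 1.77 with the mitochondrial limit of 5%. Its 2.29-fold excess in germ over Sertoli-like cells was lost with this limit, at a log2 ratio of −0.30. Differentiating-like cells did not share that excess, with 20.7 CPM against 45.7 CPM in Sertoli-like cells. Pdk3, which is X-linked, was at 94.1, 75.2 and 124 CPM in the germ cell classes and at 72.3, 25.0 and 29.7 CPM in the somatic classes. Pdk2 stayed at or below 12.8 CPM throughout. The leading kinase gene by UMIs changed among germ cells, since Pdk1 held 54.7% of the family's UMIs in SSC-like cells (interval 50.3 to 59.0%) and 69.7% in progenitor-like cells (64.7 to 74.4%), but 13.8% in differentiating-like cells (9.79 to 18.6%), where Pdk3 held 82.7%.

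**Figure D3:**
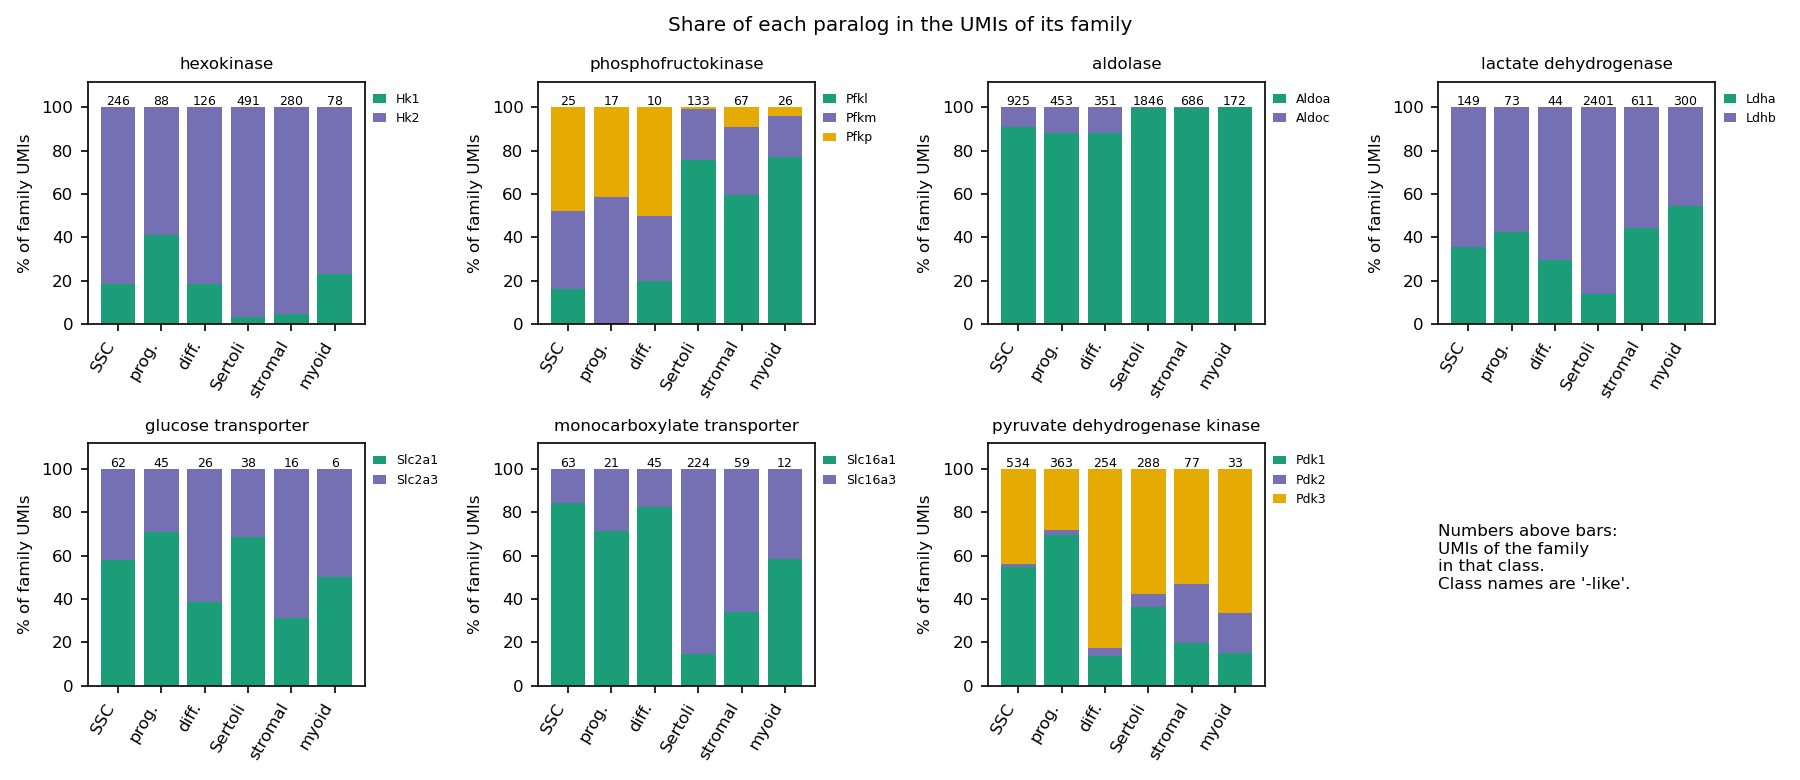
Share of each paralog in the UMIs of its family (stacked bars, in %) in 6 classes of 1 library, with the number of family UMIs above each bar. Pfkl and Slc16a3 led their families in Sertoli-like cells (75.9% and 85.3%) and in stromal-like cells (59.7% and 66.1%). Pfkl also led in myoid-like cells (76.9%). Aldoc was seen mainly in germ cells (9.08 to 12%), and Pdk1 gave way to Pdk3 in differentiating-like cells.

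Among germ cells, 7 of the 28 genes were at least 2-fold higher in undifferentiated cells (SSC-like and progenitor-like summed) than in differentiating-like cells, where 9.78% of all genes tested were, and none was at least 2-fold lower (9.29% of all genes). Pdk1 led with 141 against 20.7 CPM, 6.82-fold (log2 ratio 2.77, and 2.05 with 20 principal components). Pkm was at 387 and 148 CPM, Slc2a1 at 17.6 and 5.93 CPM and Ldha at 21.8 and 7.70 CPM. The others were Pdha1, G6pdx and Pfkm, the last from 19 and 3 UMIs with an interval that included no difference (log2 ratio 1.47, interval −0.29 to 3.87). The median log2 ratio was 0.30 over the 28 genes and −0.10 over all genes. Differentiating-like cells included 53 of the 65 germ cells with under 8000 UMIs, and without those 65 cells the counts were 8 and 0. The shares of all genes without those cells are not given. Between SSC-like and progenitor-like cells, 1 gene was at least 2-fold apart in each direction. Hk2 was higher in SSC-like cells as given above, and Pfkm was lower there (4.79% of all genes), from 9 and 10 UMIs. By log2 ratio, 13 genes were higher and 14 lower in SSC-like cells. Smaller differences with separate intervals included Eno1 (211 and 308 CPM), Pdk1 (117 and 185 CPM) and Gpi1 (283 and 343 CPM), higher in progenitor-like cells. Bsg was higher in SSC-like cells (346 and 278 CPM). The study listed Eno1 among its progenitor markers.

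The differentiating-like cells were made of 2 clusters, and these were compared after their values had been seen. The first, of 103 cells, was led by Kit and Pcsk1n and had a median of 8530 UMIs. Its size depended on the settings, at 45 cells with 10 principal components, 57 with 20 and 45 at germ resolution 1.2. In these settings 58, 57 and 56 germ cells had no stage name, and whether they came from this cluster was not tested. Leaving out germ cells under 8000 UMIs left 54 of the 103 cells. The second, of 32 cells, was led by Prss50, Ly6k and Esx1, with Meioc and the marker Dmrtb1 also high, and had a median of 12208 UMIs. Of the 26 genes that could be compared, 12 were at least 2-fold higher in Kit-led cells (14% of all genes) and 2 were at least 2-fold higher in Prss50-led cells (13.4%). The median log2 ratio of Kit-led over Prss50-led cells was 0.96 over the 26 genes and 0.00 over all genes. Without germ cells under 8000 UMIs the counts were 11 and 2, with no matching share of all genes given.

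The 12 genes included those of hexokinase, aldolase, phosphoglycerate mutase, enolase and pyruvate kinase. Eno1 was at 211 CPM in SSC-like, 308 in progenitor-like, 240 in Kit-led and 14.8 in Prss50-led cells, the last from 6 UMIs, a log2 ratio of Kit-led over Prss50-led cells of 4.02 (interval 2.89 to 5.48). Aldoa was at 229 CPM in Kit-led and 39.4 CPM in Prss50-led cells, Pgam1 at 304 and 66.5 CPM, and Pkm at 178 and 54.2 CPM. Hk2, with 78.8 CPM in Kit-led cells, had 2 UMIs in Prss50-led cells (log2 ratio 4.0, interval 2.11 to 7.07), and Dlat had 3 (2.51, interval 0.89 to 4.83). Aldoc was 3.01-fold lower. Over the settings that split these cells the log2 ratio ranged from 2.94 to 4.59 for Eno1, 2.39 to 4.35 for Hk2, 1.64 to 3.19 for Aldoa, 1.41 to 2.85 for Pgam1 and 1.13 to 2.57 for Dlat. The remaining 5 of the 12, Ldha, Ldhb, Slc2a1, Pdha1 and G6pdx, had at most 4 UMIs in Prss50-led cells and intervals that included no difference.

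Other genes were not at least 2-fold lower in Prss50-led cells. Gpi1 fell just short of it, at 307 CPM in Kit-led (interval 277 to 339) and 155 CPM in Prss50-led cells (119 to 198). Gapdh was at 712 CPM in Kit-led and 672 CPM in Prss50-led cells (log2 ratio 0.08, interval −0.11 to 0.28), Mpc2 at 459 and 507 CPM, and Pdk3 at 130 and 106 CPM. Mpc1 and Bsg were higher in Prss50-led cells, Mpc1 at 175 against 43.7 CPM and Bsg at 854 against 370 CPM. Both levels in Prss50-led cells exceeded those of the same gene in each of the 6 classes. For Mpc1 the interval, 137 to 220 CPM, overlapped that of stromal-like cells, 140 to 179 CPM. Summed over all 34 genes, Prss50-led cells gave 0.291% of their UMIs to the set and Kit-led cells 0.341%.

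**Figure D4:**
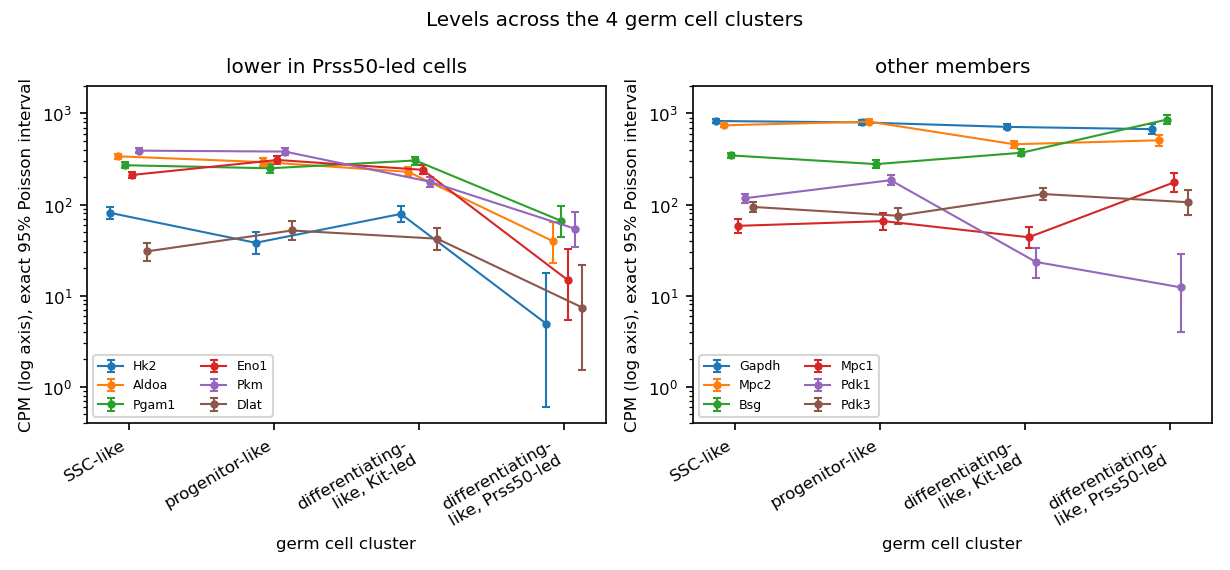
Levels in CPM (log axis, exact 95% Poisson intervals for counting error) of 12 genes in the 4 germ cell clusters of 1 library, lines joining the same gene. Hk2, Aldoa, Pgam1, Eno1, Pkm and Dlat were lower in Prss50-led than in Kit-led cells, Gapdh, Mpc2 and Pdk3 differed by less than 2-fold between them, Bsg and Mpc1 were higher, and Pdk1 was already low in Kit-led cells at 23.4 CPM.

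Stromal-like and myoid-like cells, whose marker RNA overlapped in part as given above, were compared as well. Of the 27 genes with enough UMIs, Hk2 and Slc16a3 were at least 2-fold higher in stromal-like cells (11.2% of all genes) and Hk1 was at least 2-fold higher in myoid-like cells (9.36%). Hk2 was at 163 and 81.0 CPM, only just past 2-fold. Slc16a3 was at 23.8 and 6.75 CPM, from 39 and 5 UMIs, and Hk1 at 7.92 and 24.3 CPM, from 13 and 18 UMIs.

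A further 60 genes of related pathways were read from fixed lists of other isozymes and testis paralogs, transporters, pentose phosphate, pyruvate entry, regulators, gluconeogenesis and glycogen. All 60 were in the file, 35 reached 50 UMIs, and 15 of these were at least 4-fold apart in at least 1 of the 6 comparisons, as were 41.0% of all genes. Between germ and Sertoli-like cells, 2 of the 10 regulators that reached it were at least 2-fold higher in germ cells (Egln3 and Tigar) and 3 in Sertoli-like cells (Hif1a, Epas1 and Mycn), where the shares of all genes were 24.8% and 24.5%. The pentose phosphate list gave 2 and 1 of 7 (Rpia and Taldo1 against Tkt) and the list of other isozymes 2 and 0 of 4 (Eno3 and Pdha2). Of the transporters 1 of 2, Slc2a8, was higher in germ cells, and of the pyruvate entry genes 1 of 4, Pdp1, was higher in Sertoli-like cells, as were both gluconeogenesis genes tested, Pck2 and G6pc3. The testis paralogs of later spermatogenesis were nearly absent, with 1 UMI each of Pgk2 and Gapdhs and 6 of Ldhc in the kept cells. Pdha2, the autosomal retrogene copy of Pdha1, was different, with 109 UMIs in germ cells and none in Sertoli-like, stromal-like or myoid-like cells. It was at 19.7, 17.5 and 21.3 CPM in the germ cell classes, at least 15.0-fold higher in germ cells than the level that 3 counts over the Sertoli-like cells would give. Eno3, the muscle enolase, was at 12.6 CPM in germ cells and 1.74 CPM in Sertoli-like cells.

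Among the regulators, Hif1a, encoding the hypoxia-inducible subunit HIF-1 alpha, was at 133 CPM in Sertoli-like cells against 32.1 CPM in germ cells and 31.9 CPM in stromal-like and myoid-like cells. Mycn and Myc, related transcription factor genes, had different distributions. Mycn was at 77.1 CPM in Sertoli-like, 32.1 in germ and 4.62 CPM in stromal-like and myoid-like cells, whereas Myc was at 23.9 CPM in stromal-like and myoid-like cells, 0.722 CPM in germ cells and 0.436 CPM, from 1 UMI, in Sertoli-like cells. Egln3, for a prolyl hydroxylase that acts on HIF subunits, had 62 UMIs in germ cells and none in Sertoli-like cells, at least 8.56-fold higher by the same 3-count floor. Tigar, whose product lowers the activator of phosphofructokinase, was at 41.9 CPM in germ cells, 12.2 in Sertoli-like and 2.1 CPM in stromal-like and myoid-like cells. Epas1, for HIF-2 alpha, had 24 UMIs in stromal-like and 2 in myoid-like cells (log2 ratio 2.44, interval 0.43 to 5.56). In Sertoli-like cells Epas1 was at least 2-fold higher than in germ cells, and than in stromal-like and myoid-like cells summed.

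In the other lists, Emb, whose product embigin is a partner of monocarboxylate transporters, was at 35.8 CPM in undifferentiated and 6.52 CPM in differentiating-like germ cells and 15.2 CPM in Sertoli-like cells, with 1 UMI in stromal-like and myoid-like cells. H6pd, for the glucose 6-phosphate dehydrogenase of the endoplasmic reticulum, was at 22.7 CPM in stromal-like and myoid-like cells and 1.62 CPM in germ cells, and Tkt, for transketolase, at 138 and 31.0 CPM. Pygl, for liver glycogen phosphorylase, was at 17.0 CPM in germ cells, 24.8 CPM in stromal-like and myoid-like cells and 1.31 CPM, from 3 UMIs, in Sertoli-like cells (log2 ratio of germ over Sertoli-like cells 3.70, interval 2.11 to 6.00). Gbe1, for glycogen branching enzyme, was at 18.3 CPM in Sertoli-like and 2.94 CPM in stromal-like and myoid-like cells, and Slc2a8, for GLUT8, at 1.74 and 11.3 CPM. Pck2, for mitochondrial phosphoenolpyruvate carboxykinase, was at 33.2 CPM in stromal-like and myoid-like and 7.22 CPM in germ cells.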

How the data were processed

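The authors demultiplexed and aligned the reads with Cell Ranger 2.1.0 to the mouse mm10 transcriptome and deposited raw UMI counts per gene and barcode of 1 wild-type library. The gene list does not say how reads with several matches were assigned. For 9 of the 34 genes, at least 100 of the last 300 bases matched another annotated gene's transcript at 95% identity or more. Such matches are the near-identical 3′ ends given above. Barcodes passed with 500 genes or more, a mitochondrial UMI share under 10%, a hemoglobin share under 5% and no doublet call (scrublet in scanpy 1.11.5, 4 calls). Clustering used Seurat 5.3.0 in R 4.3.3 with 14 principal components and resolution 0.5, without the 34 genes and the 60 pathway genes, and germ cells were clustered again. UMIs were summed per class and compared as CPM. Ratios have exact conditional binomial, levels exact Poisson and shares exact binomial intervals (scipy 1.17.1). A gene with at least 50 UMIs in the kept cells was counted when at least 2-fold apart; a gene with 0 UMIs in a group and 3 or fewer in the other was left out of that comparison, and any other 0 was set to 3 for the fold. Members were described in full where a difference of 2-fold had an interval without 0 (24 genes) or where paralogs were compared, and pathway genes were named at 4-fold. The arithmetic of the intervals was checked on Poisson counts drawn for germ against Sertoli-like cells (9731 genes). There, 97.0% of intervals of 200 changed genes held the true ratio. These draws held counting error alone, so they cannot say whether the intervals cover variation between cells or mice. The genes and lists were chosen with earlier results of these data known. Gene positions came from GENCODE on GRCm38, promoters from RefSeq.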

Additional observations from a re-analysis of the deposited data

How the results depend on the processing

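The counts were recomputed under 16 alternative settings and with germ cells under 8000 UMIs left out, the latter chosen after values had been seen. Of the single ratios past 2-fold, 1 reversed, that of Pdk1 in germ over Sertoli-like cells, to −0.30 with a mitochondrial limit of 5%. Of the 67 ratios of single genes past 2-fold with an interval that left out no difference, 23 moved by over 1.5 times in at least 1 setting, 10 of them most at the 5% limit, and 15 fell under 2-fold in at least 1. The count of genes at least 2-fold higher in stromal-like than myoid-like cells fell from 2 to 1 without a mitochondrial limit, with 20 principal components, with UMIs split at random between clustering and measuring (the count split), without mitochondrial and ribosomal protein genes, and centred on the median gene. The count higher in myoid-like cells went from 1 to 0 with the 5% limit and to 2 with a minimum of 20 UMIs, and the 5% limit left 1 gene, in place of 3, higher in stromal-like and myoid-like than in Sertoli-like cells. The count higher in SSC-like than progenitor-like cells, 1 gene, became 0 without a mitochondrial limit, with 10 principal components and without mitochondrial and ribosomal protein genes, 2 with hemoglobin-rich barcodes kept, with 2000 variable genes by vst and with 20 principal components, and 3 at germ resolution 1.2. The reverse count, also 1, became 0 with hemoglobin-rich barcodes kept, 10 principal components, the count split, a minimum of 100 UMIs or without germ cells under 8000 UMIs, and 2 with vst or a minimum of 20 UMIs. The causes were not tested. Shares of all genes under these settings are not given, so the changed counts cannot be read against a background. The other counts stayed within 1.5 times their value wherever they could be computed. Germ stages could not be compared at the 5% limit, which left 67 unnamed germ cells. Nor could they at germ resolution 0.3, which left 188 unnamed germ cells beside 135 differentiating-like cells. These settings and vst gave no split of the differentiating-like cells. Without germ cells under 8000 UMIs, 82 differentiating-like cells remained.

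No paired analysis was possible because the data are 1 library pooled from 3 mice. At this depth, genes with few UMIs, such as the Pfkfb genes and Slc2a3, have intervals too wide to order the classes. The 4 clusters of germ cells lie along a continuous process, and their borders moved with the settings. Germ cells left without a stage name numbered 58 with 10 principal components, 57 with 20, 56 at germ resolution 1.2 and 70 with vst. They numbered 188 at germ resolution 0.3 and 67 at the 5% limit.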

Other observations

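Pgk1, whose enzyme follows that of Gapdh, had 45 UMIs in all barcodes, against 8119 for Gapdh and 3340 for Pgam1. No near-identical 3′ end of Pgk1 was found in the annotation. Copies outside the annotation and transcript ends other than the annotated ones were not searched. The cause of the low count was not tested. The counts are of 3′ tags and were not divided by length. Pgk1 was at 7.84 CPM in Sertoli-like and 0.902 CPM in germ cells, from 18 and 5 UMIs.

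An annotated copy of Eno1 in the deposited list had 85 UMIs, against 2649 for Eno1, and 4 annotated copies of Gapdh had 27 UMIs, against 8119. The 4 X-linked genes of the set, Pgk1, Pdk3, Pdha1 and G6pdx, did not share a pattern between germ and Sertoli-like cells, with Pdha1 at least 2-fold higher in germ cells, G6pdx at least 2-fold higher in Sertoli-like cells and Pdk3 within 2-fold.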
